A study of Mus musculus with 768 samples.

Results

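The genes described here are 10 imprinted genes out of the 27723 genes of the table: NNAT (Nnat, neuronatin), MEST, PEG3, PEG10, DLK1, IGF2, IGF2R, SNRPN, MEG3 and H19. They were taken as listed rows of the table and followed in the 368 of 768 cells that had at least 2000 genes above 0. NNAT was chosen by measured values, since it was selected on the difference between its 30 h and 6 h levels in these same cells. That difference is therefore given as a description. The other members were listed as imprinted genes, and all 10 were matched by symbol.

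The cells were mouse embryonic stem cells of the strain Ainv15(iNgn2.Isl1.Lhx3.V5), maintained in a medium with 2 kinase inhibitors and leukemia inhibitory factor and then grown as embryoid bodies, which are free-floating clumps of differentiating cells. All groups carried the same cassette, in which doxycycline switches on the transcription factors Ngn2 (Neurog2), Isl1 and Lhx3 with a V5 tag. Embryoid bodies were formed 2 days before doxycycline was given at 3 µg/ml. By their labels the groups differ in hours after doxycycline: 0, 6, 12, 18, 24, 30, 36 or 48 h. They also differ in Sod1 level, which parts them into 2 sets, and in the number of genes above 0, as described below. The factors are expressed together from an inserted cassette, a line without it was not analysed here, and 0 h, the time of addition, is the only group without exposure. Viable single cells were sorted into 96 wells per time point and their RNA was read by SMART-Seq2, a full-length method without molecular identifiers.

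Imprinted genes are transcribed mainly from the copy inherited from a single parent, because DNA methylation laid down in the egg or the sperm makes the maternal and paternal copies differ. They sit in clusters where protein genes and long non-coding RNAs often come from opposite parental copies, and the marks are kept after fertilisation by the zinc finger protein Zfp57, its partner Trim28 and the methyltransferase Dnmt1. Nnat, Mest, Peg3, Peg10, Dlk1, Igf2 and Snrpn are known as paternally expressed genes, whereas Igf2r, Meg3 and H19 are expressed from the maternal copy in most mouse tissues. TPM values merge both parental copies, so nothing here measures imprinting itself.

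Nnat is a small gene at chr2:157560078-157562522 (mm10, plus strand, GENCODE M21), and lies inside the span of Blcap, chr2:157556362-157571274, on the opposite strand. The promoters of 8 of the 10 members were matched in RefSeq (GRCm38.p6), in 17 windows of 300 bases that run from 250 bases before to 50 bases after the annotated start. H19 and Peg10 had no entry. Each window was searched on both strands for TGCCGC, the hexamer that Zfp57 is known to bind when it is methylated. It was present in 6 of the 17 windows, against 11.6% of 32851 promoters in the same table. A pair of the 6 are Mest windows that overlap and hold the same matches, so with overlapping windows merged the hexamer was in 5 of 16 stretches, 1 for each of 5 members. Counted by gene, these are 5 of 8 members, against 13.1% of 27025 gene symbols. The members had more windows per gene, 2.13 against 1.22, so the count by gene is not on equal terms. The hexamer also holds a CG pair. The ratio of CG pairs to those expected from C and G content was 0.574 to 0.791 in the 6 windows. Its median over all promoters was 0.384, and member windows without the hexamer had 0.0588 (Meg3) to 0.910 (Igf2r). The part of base composition in the counts was not tested. The following windows are shown because they are those of the 5 members that held the hexamer, which stands in capitals (TGCCGC or its complement GCGGCA), with 1 of the overlapping Mest windows. They are chr2:157559828-157560127 (plus), chr6:30737800-30738099 (plus), chr12:109540746-109541045 (plus), chr7:60005150-60005449 (minus) and chr7:142661222-142661521 (minus), in the order printed and read 5′ to 3′ on the gene's strand.
Nnat: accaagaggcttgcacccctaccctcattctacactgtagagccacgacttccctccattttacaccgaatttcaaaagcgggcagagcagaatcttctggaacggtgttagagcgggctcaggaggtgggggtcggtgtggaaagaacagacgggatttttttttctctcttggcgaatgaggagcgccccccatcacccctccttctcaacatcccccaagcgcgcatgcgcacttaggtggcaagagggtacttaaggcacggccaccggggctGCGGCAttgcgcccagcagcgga
Mest: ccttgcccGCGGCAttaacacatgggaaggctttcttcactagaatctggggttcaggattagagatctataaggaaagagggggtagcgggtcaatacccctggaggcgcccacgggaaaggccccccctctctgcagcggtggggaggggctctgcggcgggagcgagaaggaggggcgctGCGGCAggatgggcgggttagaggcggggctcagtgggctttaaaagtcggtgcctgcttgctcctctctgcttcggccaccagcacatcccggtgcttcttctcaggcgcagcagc
Meg3: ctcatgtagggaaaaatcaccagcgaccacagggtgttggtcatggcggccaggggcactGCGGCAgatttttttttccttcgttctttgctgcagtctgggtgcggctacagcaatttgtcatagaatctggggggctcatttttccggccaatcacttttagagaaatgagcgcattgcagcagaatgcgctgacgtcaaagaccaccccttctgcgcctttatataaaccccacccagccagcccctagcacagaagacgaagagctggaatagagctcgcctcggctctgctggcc
Snrpn: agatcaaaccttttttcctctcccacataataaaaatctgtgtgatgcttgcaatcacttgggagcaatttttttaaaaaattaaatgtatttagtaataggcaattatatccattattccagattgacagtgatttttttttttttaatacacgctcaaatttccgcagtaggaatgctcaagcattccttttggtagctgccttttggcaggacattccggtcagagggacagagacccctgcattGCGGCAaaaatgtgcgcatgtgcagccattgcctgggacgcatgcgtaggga
Igf2: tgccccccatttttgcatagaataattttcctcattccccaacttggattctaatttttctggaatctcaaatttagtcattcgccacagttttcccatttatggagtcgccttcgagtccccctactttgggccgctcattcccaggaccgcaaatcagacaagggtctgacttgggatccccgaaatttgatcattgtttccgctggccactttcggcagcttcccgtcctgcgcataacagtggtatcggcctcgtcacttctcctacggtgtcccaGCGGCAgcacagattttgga
Counted from the annotated start as 1, the Nnat match began at position 28, the Igf2 match at 31 and the Meg3 match at -190, whereas the Snrpn match began at -2. The Mest window held 2 matches. Motif matches of the programming factors were sought in the same way. The E-box CAGATG, a form bound by Ngn2, was in 0 of the 17 windows and in 17.2% of all promoters, and the homeodomain core TAATTA was in 1 Igf2 window and in 5.29% of all promoters. These matches are letters in a window, and methylation and binding were not measured.

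Time points fell into 2 sets by the level of Sod1, whose mean was 19553 to 65262 TPM at 0, 12, 36 and 48 h (here Sod1-high) and 518 to 807 TPM at 6, 18, 24 and 30 h (Sod1-low). The labels mention 2 library batches without saying which cells belong to which, so the sets are described by Sod1 alone and levels are compared only within a set. Kept cells numbered 37, 52, 44 and 14 at 0, 12, 36 and 48 h, and 53, 56, 55 and 57 at 6, 18, 24 and 30 h. Their median number of genes above 0 was 5304, 4269, 2894 and 2141 in the Sod1-high set and 6481 to 7484 in the Sod1-low set. Each time point is 1 sample, so no test between time points is possible, SDs are spreads over cells, and intervals are exact (Clopper-Pearson) 95% binomial limits that cover counting error only. POU5F1, the core pluripotency factor, was above 0 in 51 of 53 cells at 6 h and in 29 of 57 at 30 h, and the neuronal gene STMN2 in 24 and 49. Around the line of 2000 genes, 48 cells with 1500 to 1999 genes had NNAT above 0 in 29.2% and MEG3 in 77.1%, and 22 cells with 2000 to 2499 genes in 22.7% and 86.4%.

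NNAT, which encodes a small membrane protein of the endoplasmic reticulum named for its abundance in newborn brain, was the member with the largest differences between time points. In the Sod1-low set the means at 6, 18, 24 and 30 h were 15.3 ± 56.0, 46.1 ± 104, 238 ± 704 and 378 ± 923 TPM (SD over n = 53, 56, 55 and 57 cells). The lowest cell was at 0 at every time point, the medians were 0, 1.17, 3.02 and 4.12 TPM, and the highest cells had 391, 399, 4133 and 4758 TPM. The ranges of cells overlapped throughout, and each mean differed from the next by less than the SD at the later time. What differed most was the upper part of the distribution: the upper quartile was 3.85, 18.1, 170.2 and 139 TPM at these times.

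**Figure D1:**
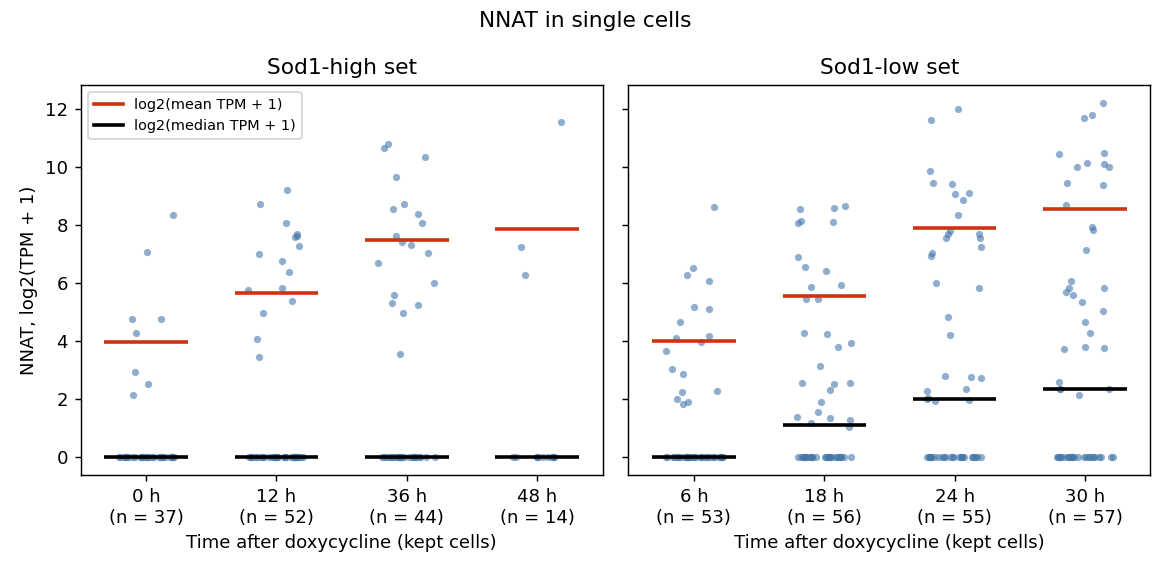
Each point is a kept cell, with NNAT as log2(TPM + 1) on the vertical axis and hours after doxycycline on the horizontal axis, in panels for the Sod1-high and Sod1-low sets; red lines mark the mean and black lines the median on the same scale. Cells at 0 are present at every time point, and the highest cell is at 391 TPM at 6 h and 4758 TPM at 30 h.

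Detection of NNAT differed less than its level. At 6 h, 18 of 53 cells had it (34.0%, 21.5 to 48.3%), followed by 29 of 56 at 18 h (51.8%), 30 of 55 at 24 h (54.5%) and 32 of 57 at 30 h (56.1%, 42.4 to 69.3%). Among cells above 0 the median was 15.6, 17.9, 141 and 61.3 TPM at the same times. The log2 fold change of mean TPM + 1 was 4.54 at 30 h against 6 h, rank 3 of 6317 genes that passed the filter of a mean of at least 10 TPM and detection in at least 25% of cells at the higher time point. NNAT was selected on this difference, so a high rank follows from the choice and lends no support. By steps, the log2 fold change was 1.54 from 6 to 18 h, 2.34 from 18 to 24 h and 0.67 from 24 to 30 h. With the median over cells in place of the mean it was 2.36.

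A few cells held most of the NNAT signal. At 30 h the highest cell carried 22.1% of the summed TPM and the 5 highest carried 67.0%. At 24 h these shares were 31.6% and 73.2%. Its coefficient of variation (SD over mean) was 3.67, 2.25, 2.96 and 2.44 at 6, 18, 24 and 30 h. Of the genes whose mean lay within 2-fold of it, 98.7%, 94.0%, 99.7% and 97.9% had a lower coefficient. The median coefficient of those genes was 0.716 at 30 h, over 439 genes. NNAT was thus among the most variable genes of its level at each time in the Sod1-low set.

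In the Sod1-high set the means of NNAT at 0, 12, 36 and 48 h were 14.8 ± 57.3, 49.1 ± 114, 179 ± 413 and 229.7 ± 795 TPM (SD over n = 37, 52, 44 and 14 cells). The median was 0 at all 4 times, and the highest cells had 326, 587, 1762 and 2989 TPM. At 48 h only 3 of 14 cells were above 0 and the highest carried 92.9% of the signal, so that mean rests on 1 cell. Cells above 0 were 8 of 37 at 0 h (21.6%, interval 9.83 to 38.2%), 16 of 52 at 12 h (30.8%, 18.7 to 45.1%) and 19 of 44 at 36 h (43.2%, 28.3 to 59.0%). The order of the means was the order of time in both sets, with neighbouring means closer than the SD over cells at the later time. The coefficient of variation was 2.31 at 12 h and at 36 h, and 53.9% of genes of like mean were lower at each, so NNAT did not stand out by its spread at those times. At 0 and 48 h it did not pass the filter and was not compared. The log2 fold change was 1.66 at 12 h against 0 h, but 5.99 in odd-numbered and -0.15 in even-numbered cells. At 36 h against 12 h it was 1.85, and 0 with the median over cells.

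The table splits this gene over a pair of rows, since PEG5 is listed in RefSeq as a synonym of Nnat. The PEG5 row had means of 3.63 ± 25.4, 4.79 ± 14.6, 31.9 ± 97.5 and 44.7 ± 91.7 TPM at 6, 18, 24 and 30 h, with 3, 10, 14 and 20 cells above 0. Across cells the rows moved together, with a Spearman rho of 0.72 over 55 cells at 24 h and 0.59 over 57 cells at 30 h, and at 24 h all 14 cells with PEG5 also had NNAT. The rows share cells and libraries, and how reads were divided between them is not known. With both rows summed, the gene was above 0 in 64.9% of cells at 30 h and 37.7% at 6 h, and the log2 fold change was 4.41.

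PEG5 also had the highest rho with NNAT over the 30 h cells among 9115 genes above 0 in at least 25% of them. The next named genes were Mrps26, a mitochondrial ribosomal protein gene, at 0.55, Grip1, a scaffold of glutamate receptors, at 0.51, Trp53i11 at 0.50 and Crybg3 at 0.50. At 24 h the same 4 genes had 0.12, 0.00, 0.07 and -0.08, whereas PEG5 kept 0.72. The median over all 9115 genes at 30 h was 0.00, with 5% below -0.22 and 5% above 0.25. Of these 5 rows only PEG5, the synonym of Nnat, was as close at 24 h. Blcap, the gene that surrounds Nnat, had a mean of 16.2 TPM at 6 h against 55.3 TPM at 30 h, a log2 fold change of 1.71. Its rho with NNAT was -0.12 at 30 h and -0.03 at 24 h, so the means of both genes were higher at 30 h, while no clear relation between them was seen across cells. At 30 h, 22 of 57 cells had both, out of 32 with NNAT and 42 with BLCAP. The reads of SMART-Seq2 carry no strand, so reads within the shared span cannot be told apart by strand.

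Markers of several cell types differed between the same time points. Summed over the 11 neuronal genes measured, the mean level was 319 TPM at 6 h (cells from 2.03 to 1547) and 788 TPM at 30 h (20.1 to 5916), with 6 of 9 passing genes at least 2-fold higher. The 9 pluripotency genes summed to 2761 TPM at 6 h (308 to 15949) and 947 TPM at 30 h (6.94 to 4981), with 5 of 7 at least 2-fold lower. The 7 trophoblast and epithelial genes summed to 272 TPM (0 to 2736) and 988 TPM (7.40 to 5212), led by keratins, with CDX2 and HAND1 at 0 in every cell of both times. Mesoderm genes summed to 1.54 and 55.3 TPM, of which T (brachyury) gave 49.3 TPM at 30 h, with MESP1 and EVX1 at 0 in both. Endoderm genes summed to 1.57 and 1.10 TPM, with SOX17, FOXA2 and TTR at 0 in both. Progenitor genes had 167 and 470 TPM, with 3 of 3 passing genes at least 2-fold higher. Motor neuron genes had 25.3 and 86.5 TPM, with 2 of 3 higher, and LMO4 gave 12.6 and 54.5 TPM of these sums. Stromal and muscle genes had 121 and 64.8 TPM, with 2 of 3 lower. Over all passing genes, 13.9% were at least 2-fold higher and 6.03% lower. In the Sod1-high set the neuronal genes summed to 128, 622 and 2623 TPM at 0, 12 and 36 h, the pluripotency genes to 5704, 2319 and 476 TPM, and the trophoblast and epithelial genes to 18.3, 391 and 467 TPM, with KRT19, CDX2 and HAND1 at 0. At these times progenitor genes summed to 48.4, 161 and 759 TPM, and motor neuron genes to 253, 1163 and 483 TPM. Of the motor neuron sums LMO4 alone gave 253, 1058 and 346 TPM, so they mostly follow that gene. MNX1, ISL2 and CHAT were at 0 in every 0 h cell. From 12 to 36 h SLC18A3 had 84.5 and 93.9 TPM, MNX1 2.14 and 16.0 TPM, and CHAT 16.6 and 0.586 TPM. Stromal and muscle genes summed to 180, 306 and 160 TPM, and mesoderm genes to 12.8, 64.9 and 192 TPM. Endoderm genes summed to 0.589, 5.10 and 4.85 TPM. The part of these markers in the differences of the imprinted genes was not tested.

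Per cell, the relation of NNAT to the neuronal genes was weak, and at 24 and 30 h no closer than that to the keratin gene KRT8. Its rho with the neuronal score, the mean log2(TPM + 1) of those 11 genes, was 0.22 over 55 cells at 24 h and 0.25 over 57 cells at 30 h. With the score of the 3 programming factors it was 0.17 and 0.31. Its rho with KRT8, an epithelial marker, was 0.35 at 24 h and 0.28 at 30 h, and with T, the mesoderm gene brachyury, -0.03 and -0.33. With STMN2 it was 0.03 and 0.07. Its rho with POU5F1 was 0.34 over 53 cells at 6 h, where all 18 cells with NNAT also had POU5F1, and -0.31 at 30 h, where 13 of 32 did. The 5 cells highest in NNAT at 30 h had POU5F1 at 0, and 4 of them had STMN2 above 0, as did 49 of all 57 cells. At 24 h, 2 of the 5 highest cells had POU5F1 above 0 (34.0 and 139 TPM), and the highest cell had 5.25 TPM of STMN2. The 5 at 30 h had 4236 to 6961 genes above 0, where the deepest cell had 9194, and the rho of NNAT with that number was -0.09. The 5 at 24 h had 4159 to 8494 genes above 0, the latter the most of any 24 h cell. There the rho of NNAT with the number of genes was 0.18, and the part of depth was not tested.

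MEST, the paternally expressed mesoderm-specific transcript that encodes a membrane enzyme of the hydrolase fold, was the most widely detected of the protein-coding members in the Sod1-low set. The means at 6, 18, 24 and 30 h were 54.6 ± 105, 39.6 ± 49.3, 56.5 ± 74.9 and 92.8 ± 180 TPM, with medians of 21.7, 21.1, 31.6 and 37.3 TPM. Cells above 0 numbered 46 of 53, 43 of 56, 49 of 55 and 48 of 57 cells, and the highest cells had 637, 207, 407 and 1096 TPM. The ranges overlapped and the log2 fold change at 30 h against 6 h was 0.76, below 2-fold, and -1.04 over all cells. In the Sod1-high set its means were 34.7 ± 70.3, 88.3 ± 208, 65.9 ± 198 and 69.7 ± 156 TPM at 0, 12, 36 and 48 h, with 17 of 37, 29 of 52, 15 of 44 and 5 of 14 cells above 0. The log2 fold change at 12 h against 0 h was 1.32, but 2.66 in odd-numbered cells and -0.41 in even-numbered cells. Copg2, which overlaps Mest on the opposite strand, had 10.4 TPM at 6 h against 23.5 TPM at 30 h, and its rho with MEST lay between -0.17 and 0.11 at the 4 times of that set.

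PEG10, a gene derived from a retrotransposon and needed for placenta formation, was low at first. It had means of 4.84 ± 11.5, 4.26 ± 13.5, 13.5 ± 23.2 and 21.5 ± 68.2 TPM at 6, 18, 24 and 30 h. The medians were 0, 0, 0.51 and 0 TPM and the highest cells had 63.1, 94.7, 112 and 477 TPM. The share of cells above 0 stayed between 39.3% and 50.9% (23, 22, 28 and 24 cells), and the median of the cells above 0 was 3.10, 5.06, 21.4 and 21.8 TPM. At 30 h a single cell carried 38.9% of the signal, and without it the mean was 13.4 TPM. The log2 fold change at 30 h against 6 h was 1.95 for the means and 0 for the medians over all cells. PEG10 passed the filter only through its 30 h level. At 0, 12, 36 and 48 h its means were 1.28, 4.22, 15.9 and 13.4 TPM, with 8 of 37, 14 of 52, 7 of 44 and 4 of 14 cells above 0, and 1 cell held 68.2% of the signal at 36 h.

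At 24 h PEG10 had the highest rho with the neuronal score among the 6 members above 0 in at least 25% of cells, at 0.62. At 30 h it had 0.40, below the 0.49 of MEG3, and at 6 and 18 h it had 0.29 and 0.19. With the 3 factors its rho was 0.65 at 24 h and 0.52 at 30 h. With the number of genes above 0 held constant, the rho with the neuronal score was 0.58 at 24 h and 0.37 at 30 h. The rho of PEG10 with Sgce, its paternally expressed neighbour that starts close by on the other strand, was 0.49 at 24 h and 0.30 at 30 h, and Sgce itself had 10.8 TPM at 6 h against 24.9 TPM at 30 h. Ppp1r9a, a further gene of that cluster, had 6.06 and 19.6 TPM, and its rho with PEG10 was 0.16 at 24 h and 0.07 at 30 h. These are descriptions over 55 and 57 cells that share 1 sample each.

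**Figure D2:**
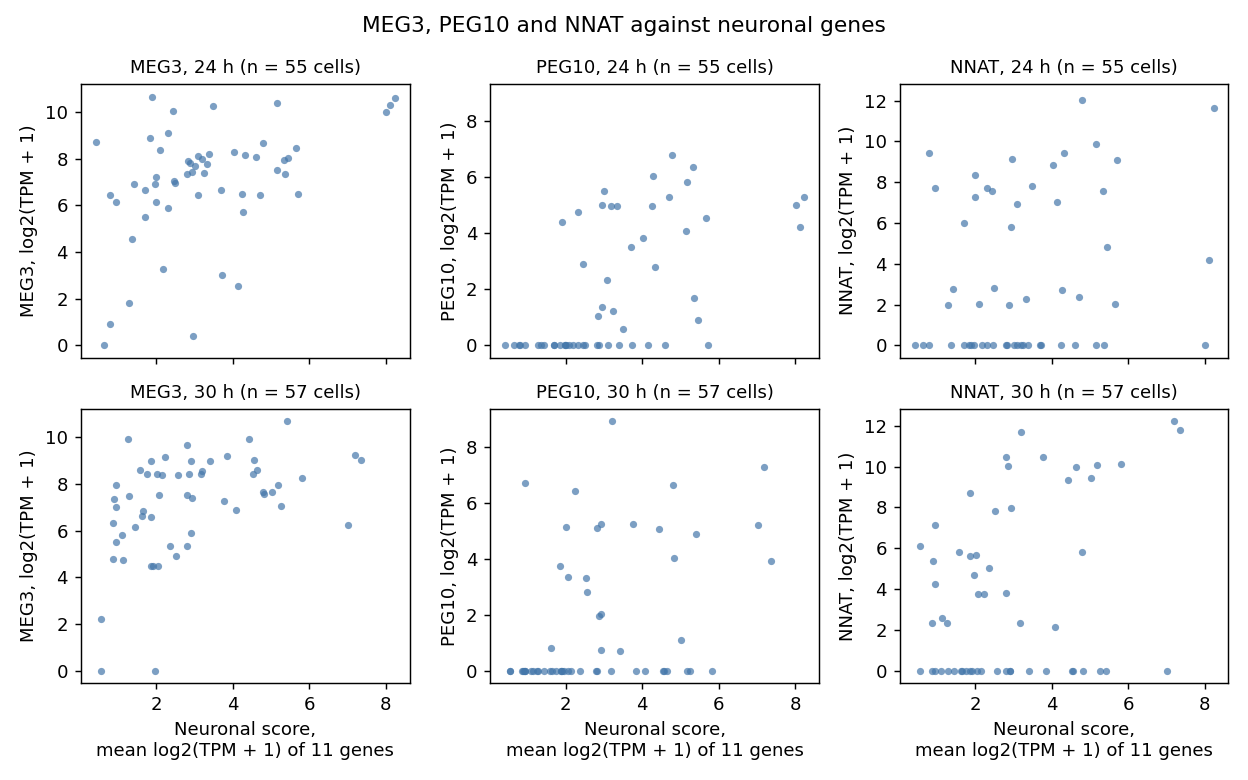
Each point is a kept cell at 24 h (top, n = 55) or 30 h (bottom, n = 57); the horizontal axis is the neuronal score, the mean log2(TPM + 1) of 11 genes, and the vertical axes are MEG3, PEG10 and NNAT as log2(TPM + 1). The rho with the score is 0.38 and 0.49 for MEG3, 0.62 and 0.40 for PEG10, and 0.22 and 0.25 for NNAT.

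PEG3, a zinc finger protein gene expressed from the paternal copy, was low and scattered. Means of 15.0 ± 27.1, 4.92 ± 8.90, 7.76 ± 12.7 and 12.9 ± 36.0 TPM were found at 6, 18, 24 and 30 h. At 6 h, 37 of 53 cells had it (69.8%, 55.7 to 81.7%), against 25 of 57 at 30 h (43.9%, 30.7 to 57.6%). Detection was thus lower at 30 h while the means of both times differed little, with a log2 fold change of -0.21. At 18 h against 6 h it was -1.44, where PEG3 passed only through its 6 h level. The median number of genes above 0 was 7484 at 6 h and 6481 at 30 h. The rho of PEG3 with that number was 0.57 at 6 h and 0.27 at 30 h, and its part in the difference was not tested. The highest cell was at 133 TPM at 6 h and at 258 TPM at 30 h, where it carried 35.1% of the signal. In the Sod1-high set the means were 5.44, 14.9, 6.70 and 33.8 TPM at 0, 12, 36 and 48 h, with 11 of 37, 11 of 52, 8 of 44 and 6 of 14 cells above 0.

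By mean TPM, the signal of the Dlk1 and Meg3 cluster came almost entirely from its non-coding RNA. MEG3, a maternally expressed long non-coding RNA, had the highest mean of the 10 members at every time point but 30 h, where NNAT had 378 TPM against 281, with a median of 4.12 against 186. At 6, 18, 24 and 30 h its means were 356 ± 642, 211 ± 240, 312 ± 406 and 281 ± 300 TPM, with medians of 193, 144, 167 and 186 TPM. It was detected in 52 of 53, 52 of 56, 54 of 55 and 55 of 57 cells. In the Sod1-high set its means were 427 ± 309, 529 ± 536, 858 ± 1190.2 and 834 ± 900 TPM at 0, 12, 36 and 48 h, with medians of 379, 338, 493 and 539 TPM and 37 of 37, 51 of 52, 40 of 44 and 13 of 14 cells above 0. Its log2 fold change was -0.34 from 6 to 30 h, 0.31 from 0 to 12 h and 0.70 from 12 to 36 h, in each case below 2-fold. Over all cells the last of these was -0.52, and by medians the one before it -0.17. At 0 h its coefficient of variation was 0.725, with 28.2% of genes of like mean lower, and at 6 h 1.80, with 95.6% lower.

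DLK1, the paternally expressed gene of that cluster, encodes a membrane protein related to Notch ligands and was nearly absent. Its mean was at most 0.240 TPM, and 1 cell had it at each of 6, 12 and 30 h and none at the remaining times. Its 0 of 37 cells at 0 h allow a share of up to 8.11%, and its 0 of 55 at 24 h up to 5.45%. Rtl1, a further gene of the cluster, was low but more widely detected. It was above 0 in 54.7%, 46.4%, 54.5% and 49.1% of cells at 6, 18, 24 and 30 h, with means of 2.04 to 6.23 TPM. At 0, 12, 36 and 48 h it was above 0 in 24.3%, 25%, 15.9% and 7.14% of cells, with means of 0.601 to 7.91 TPM. Rian, a non-coding RNA that follows Meg3 on the same strand, had a mean of 276, 284, 224 and 231 TPM at 6, 18, 24 and 30 h, of the same order as MEG3. Its rho with MEG3 was 0.75, 0.45, 0.73 and 0.50 at those times and 0.35, 0.43, 0.35 and 0.87 at 0, 12, 36 and 48 h. The relation to Rian was thus positive at all 8 times, over 14 to 57 cells. Mirg, the microRNA host further along the cluster, had 3.62 to 13.9 TPM over the 8 times and a rho with MEG3 of 0.20 to 0.59. MEG3 also went with the neuronal score, at 0.52, 0.44, 0.38 and 0.49 over the 6, 18, 24 and 30 h cells.

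The Igf2 and H19 locus had little signal in these cells. H19, a maternally expressed long non-coding RNA, was above 0 in 0 to 2 cells at each time point, and its highest mean, 12.9 TPM at 24 h, came from 1 cell of 709 TPM that held 99.8% of the signal. IGF2, the fetal growth factor expressed from the paternal copy, had a mean of at most 1.06 TPM at every time except 48 h, where 1 of 14 cells held all of the signal. Its detection in the Sod1-low set was 4 of 53 cells at 6 h (7.55%, interval 2.09 to 18.2%), 3 of 56 at 18 h (5.36%), 10 of 55 at 24 h (18.2%) and 12 of 57 at 30 h (21.1%, 11.4 to 33.9%). Only 1 cell at 30 h reached 10 TPM (1.75%), and the intervals of 6 and 30 h overlapped.

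IGF2R, the maternally expressed receptor that takes up and degrades IGF2, was lower at the late times of the Sod1-high set. At 0, 12, 36 and 48 h its means were 21.4 ± 19.0, 32.4 ± 37.4, 8.92 ± 14.9 and 1.21 ± 3.59 TPM. The medians were 18.6, 25.1, 1.57 and 0 TPM, and the highest cells had 79.5, 199, 59.4 and 13.2 TPM. At 0 h, 34 of 37 cells had it (91.9%, 78.1 to 98.3%), then 47 of 52 at 12 h (90.4%), 23 of 44 at 36 h (52.3%, 36.7 to 67.5%) and 2 of 14 at 48 h (14.3%). The log2 fold change at 36 h against 12 h was -1.75, and -0.93 in cells with at least 1000 genes. The median number of genes above 0 was also lower at 36 h than at 12 h (2894 against 4269), and the rho of IGF2R with that number was 0.38 over the 36 h cells; its part in the difference was not tested. At 0 and 12 h IGF2R was among the most even genes of its level, since only 1.41% and 2.45% of genes of like mean had a lower coefficient of variation.

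In the Sod1-low set the means of IGF2R differed by less than the SD over cells, at 3.16 ± 6.11, 1.70 ± 3.92, 4.03 ± 6.80 and 3.59 ± 8.19 TPM at 6, 18, 24 and 30 h. Cells above 0 numbered 27, 25, 30 and 22. Airn, the paternally expressed antisense RNA known to silence Igf2r on that copy, had 7.16, 10.4, 25.5 and 9.46 TPM at 0, 12, 36 and 48 h. Its log2 fold change at 36 h against 12 h was 1.21, in the direction opposite to IGF2R. Per cell, their rho was -0.24, -0.08 and -0.14 at 0, 12 and 36 h, and 0.26, 0.44, -0.26 and 0.16 at 6, 18, 24 and 30 h, so no steady relation was seen. The 2 genes overlap on opposite strands, and reads in the overlap cannot be assigned by strand.

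SNRPN, which encodes a spliceosomal protein abundant in brain and is expressed from the paternal copy, shares its locus and promoter with Snurf, and the table gives each a row. The SNRPN row had a mean of 3.87, 2.68, 3.75 and 1.99 TPM at 6, 18, 24 and 30 h, above 0 in 9, 11, 12 and 6 cells. At 0, 12, 36 and 48 h it had 28.7, 8.54, 37.3 and 2.17 TPM, with 6, 7, 7 and 2 cells above 0, and at 12 and 36 h a single cell held 88.5% and 79.3% of the signal. The SNURF row carried nearly all the signal of the locus, at 218 ± 203, 158 ± 123, 146 ± 128 and 151 ± 133 TPM at 6, 18, 24 and 30 h, in 49 of 53, 53 of 56, 49 of 55 and 48 of 57 cells. In the Sod1-high set SNURF had 335 ± 347, 205 ± 280, 290.2 ± 629 and 452 ± 1072 TPM at 0, 12, 36 and 48 h, in 30 of 37, 33 of 52, 23 of 44 and 3 of 14 cells. The SNRPN row alone thus gives a small part of the signal listed for the locus. With the rows summed, the locus had 222 TPM at 6 h against 153 TPM at 30 h.

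**Figure D3:**
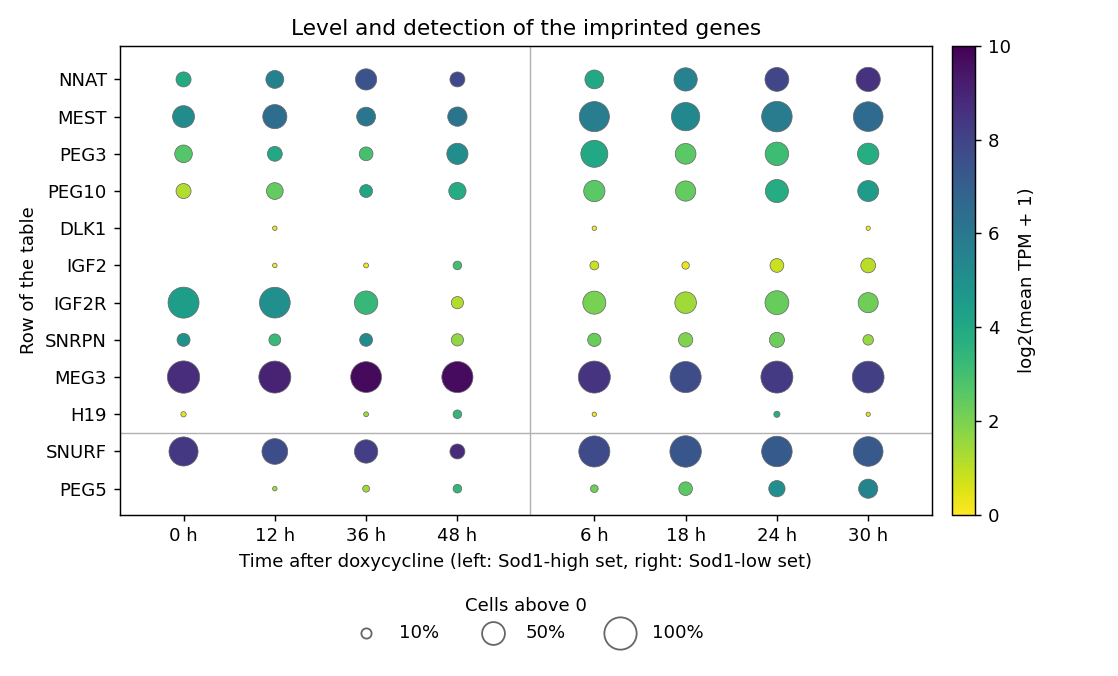
Rows are the 10 imprinted genes, and below the line the SNURF and PEG5 rows; columns are hours after doxycycline in the Sod1-high (left) and Sod1-low (right) sets, dot area is the percentage of kept cells above 0 and colour is log2(mean TPM + 1). MEG3 is in 90.9% to 100% of cells at every time, whereas DLK1 and H19 are near empty, IGF2 is pale and in at most 21.1% of cells, and NNAT darkens from 6 to 30 h with little change in dot size after 18 h.

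In each pair of times compared, 2 members were at least 2-fold higher or lower. In the pair 30 h against 6 h, 5 members passed the filter, of which NNAT and PEG10 were at least 2-fold higher and 0 were lower. Over all 6317 genes that passed, 13.9% were at least 2-fold higher and 6.03% lower. NNAT was chosen on this pair and PEG10 passed only through its 30 h level, so nothing is read from the count. The median log2 fold change was 0.76 over the 5 members, 0.27 without NNAT and -0.21 without NNAT and PEG10, and 0.20 over all genes. At 12 h against 0 h, 4 members passed, of which NNAT and MEST were at least 2-fold higher and 0 lower, with 17.0% of 5848 genes higher and 13.0% lower, and the median was 0.95, or 0.57 without NNAT, against 0.04. At 36 h against 12 h, 4 members passed, of which NNAT was at least 2-fold higher and IGF2R at least 2-fold lower, with 19.4% of 4895 genes higher and 24.8% lower, and the median was 0.14, or -0.42 without NNAT, against -0.12. The last pair shares the 12 h cells with the pair before it, and members that passed only through their higher time point had to differ. Besides PEG10, these were NNAT at 12 h against 0 h and IGF2R at 36 h against 12 h.

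**Figure D4:**
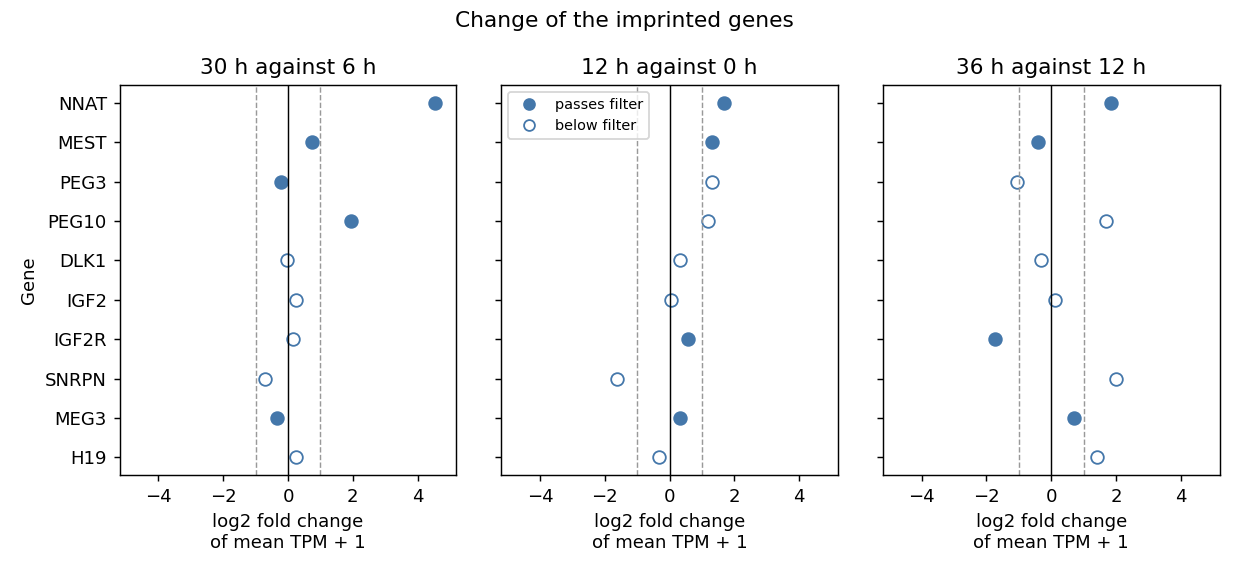
Each point is a member's log2 fold change of mean TPM + 1 at 30 h against 6 h, 12 h against 0 h and 36 h against 12 h; filled points passed the filter on low values, open points did not, and dashed lines mark 2-fold. NNAT is the one filled point beyond 2-fold higher in all 3 panels, at 4.54, 1.66 and 1.85, and IGF2R the one filled point beyond 2-fold lower, at -1.75.

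The genes next to the members were described in the same way. At 30 h against 6 h, 7 of 16 neighbours passed, of which 4 were at least 2-fold higher: Blcap (1.71), the neurabin gene Ppp1r9a (1.55), Sgce (1.14), an epsilon-sarcoglycan gene, and Copg2 (1.11), a coat protein gene of Golgi transport. Over all genes that passed, 13.9% were at least 2-fold higher and 6.03% lower. Ppp1r9a passed only through its 30 h level, and nothing is read from the count. Rian (-0.26), Snurf (-0.53) and the ubiquitin ligase gene Ube3a (-0.13) were within 2-fold. At 12 h against 0 h, 6 neighbours passed and 0 reached 2-fold in either direction, with values from -0.71 (Snurf) to 0.49 (Airn). The shares over all passing genes at that pair were 17.0% higher and 13.0% lower. The remaining passing neighbours at that pair were Rian (-0.43), Mirg (-0.15), Ppp1r9a (-0.52) and Ube3a (-0.16). At 36 h against 12 h, 6 neighbours passed, with 3 at least 2-fold higher and 0 lower. Those higher were Ppp1r9a (2.12), Ube3a (1.37) and Airn (1.21), and Ppp1r9a passed only through its 36 h level. Over all passing genes of that pair the shares were 19.4% higher and 24.8% lower.

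Of 39 other imprinted genes, 14 passed at 30 h against 6 h, with 2 at least 2-fold higher and 1 lower and a median of 0.20, the value over all genes. Among all passing genes 13.9% were at least 2-fold higher and 6.03% lower. Those higher were Ndn (1.76), the necdin gene of the Snrpn region that is expressed in neurons, and Gnas (1.64), the stimulatory G protein alpha subunit gene, and the one lower was Phf17 (-1.10). Next came Trappc9 (0.90), Commd1 (0.58) and Peg12 (0.42). NDN had a mean of 18.2, 59.3, 52.6 and 64.0 TPM at 6, 18, 24 and 30 h and was above 0 in 28, 42, 40 and 44 cells. Its rho with NNAT was 0.44 at 30 h, the 11th highest of 9115 genes, while at 24, 18 and 6 h it was 0.33, 0.10 and -0.23. The 5 cells highest in NNAT at 30 h had 75.7 to 212 TPM of NDN. The 5 highest at 24 h had 22.2 to 142 TPM of NDN, on both sides of its 24 h mean of 52.6 TPM. At 12 h against 0 h, 14 of the 39 passed and 3 were at least 2-fold higher: Gnas (2.73), the amino acid transporter gene Slc38a4 (2.35) and Nap1l4 (1.90). Slc38a4 passed only through its 12 h level, and 17.0% of all passing genes were at least 2-fold higher at that pair.

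The genes that maintain imprints were at like levels at 6 and 30 h, and several had lower means at 18 h. Of 10 such genes 7 passed at 30 h against 6 h, 0 reached 2-fold in either direction, and the values ran from -0.34 (Trim28) to 0.43 (Zfp57). By comparison, 13.9% of all passing genes were at least 2-fold higher and 6.03% lower. ZFP57, which guards imprinted marks, had a mean of 16.3 TPM at 6 h against 22.2 TPM at 30 h, and DNMT1, the maintenance methyltransferase, 46.3 and 44.1 TPM. Setdb1 (-0.32), a histone methyltransferase recruited by Trim28, the insulator factor Ctcf (0.32), Naa10 (-0.28) and Uhrf1 (-0.16) lay between. Means at 18 h stood apart for several of them: TRIM28 had 64.8, 31.9 and 61.9 TPM at 6, 18 and 24 h. NAA10 had 210.2, 110.4 and 192 TPM at these times, and DNMT1 46.3, 34.0 and 56.6 TPM. At 12 h against 0 h 8 passed, and Setdb1 was at least 2-fold lower (-1.14), from 19.2 to 8.16 TPM, followed by Trim28 (-0.80) and Uhrf1 (-0.43). Setdb1 passed only through its 0 h level, and 13.0% of all passing genes were at least 2-fold lower at that pair. Between 12 and 36 h the list differed more. There 7 passed, with Dnmt1 (1.24) and Setdb1 (1.01) at least 2-fold higher and Trim28 (-1.81) lower. Setdb1 passed only through its 36 h level. Over all passing genes of that pair 19.4% were at least 2-fold higher and 24.8% lower.

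Among 17 genes of the insulin-like growth factor axis, 6 passed at 30 h against 6 h and 1 was at least 2-fold higher, the insulin receptor gene Insr (2.10), with 4.33 TPM at 6 h and 21.9 TPM at 30 h. Insr passed only through its 30 h level, and 13.9% of all passing genes were at least 2-fold higher. The RNA-binding proteins Igf2bp3 (0.98), Igf2bp2 (0.58) and Igf2bp1 (0.14), named for binding Igf2 messenger RNA, and the binding proteins Igfbp4 (0.79) and Igfbp2 (0.15) were within 2-fold. Igf2bp1 was above 0 in 98.1% of cells at 6 h and 98.2% at 30 h although its namesake target was near 0. At 12 h against 0 h the signalling adaptor Irs1 was higher (2.37), Igf2bp2 lower (-1.62) and Igf1r within 2-fold (0.57). Irs1 passed only through its 12 h level and Igf2bp2 only through its 0 h level. At that pair 17.0% of all passing genes were at least 2-fold higher and 13.0% lower. At 36 h against 12 h, 5 passed, with 0 at least 2-fold higher and 2 lower. These were Igfbp2 (-4.70), from 343 to 12.3 TPM, and Irs1 (-1.17), both of which passed only through their 12 h level. Over all passing genes of that pair 19.4% were higher and 24.8% lower.

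Over cells of a single time point most pairs of members were weakly related. With pairs limited to members above 0 in at least 25% of cells, the 15 pairs had a median rho of 0.23 at 6 h, from -0.12 to 0.45, and medians of 0.15, 0.01 and 0.08 at 18, 24 and 30 h. The highest at 6 h was MEG3 with MEST, at 0.45 over 53 cells, and 0.40 with the number of genes above 0 held constant. That pair was at 0.11 over 56 cells at 18 h, -0.26 over 55 cells at 24 h and 0.25 over 57 cells at 30 h. The highest pair at 18 h was NNAT with MEST, at 0.37, which had 0.19, 0.19 and 0.23 at 6, 24 and 30 h. MEG3 with PEG10 was at 0.34, 0.06, 0.41 and 0.29 at 6, 18, 24 and 30 h, so it was close to no relation at 18 h. NNAT with PEG10 was at -0.08, 0.08, 0.12 and 0.31 at these times, and NNAT with MEG3 at 0.03, 0.11, 0.00 and 0.28. All of these rest on cells of 1 sample per time point that share a library preparation, and PEG3 and IGF2R also went with the number of genes above 0, at 0.57 and 0.56 at 6 h.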

How the data were processed

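RNA of single mouse cells was read as 50 bp single-end reads at a stated average of 325000 reads per cell, per the labels' protocols, in 2 library batches whose cells are not named. The authors deposited 1 table of TPM (transcript abundance, scaled for transcript length and to a total of 1000000 per cell). The tools bcl2fastq and Picard and the mm10 build are named in the submitters' processing notes. The aligner and gene models were not given in the sources used here, and column names contain rsem. TPM holds no read counts, so depth is known only as genes above 0, shares of cells could not be thinned to 1 depth, and a few abundant genes lower all others.

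The 368 of 768 cells that had 2000 or more genes above 0 entered the comparisons. Columns were matched to samples by name, 0 were left unmatched, and 0 were identical to another. Per time point the share of cells above 0, mean, SD and coefficient of variation were taken. Fold changes are log2 ratios of mean TPM + 1, which understates low genes. A gene passed with a mean of at least 10 TPM and detection in at least 25% of cells at the higher time point. With 1 sample per time point no p-value was made, and 2-fold is a measure of size. For a share of 0 the limit is 3 cells divided by those kept. Spearman rho was computed over kept cells of 1 time point. The fold computation was checked on simulated cells with known fold changes; the folds between time points themselves were not tested.

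The members and lists were chosen with earlier results of these data known. Named genes are all members, neighbours that passed at 30 h against 6 h or 12 h against 0 h, up to 6 (30 h against 6 h) and 3 (12 h against 0 h) genes with the largest change of each further list, the 5 named genes most like NNAT at 30 h, Sod1, and the lists' markers. PEG5, Dnmt1, Ndn's relation to NNAT, POU5F1, STMN2, KRT8 and T per cell, TRIM28, NAA10 and DNMT1 at 18 and 24 h, and rho with neighbours were added after values were seen. So were Rtl1, the single motor neuron genes, the CG content of promoter windows, and the neighbours and further lists at 36 h against 12 h. Of 155 list genes 153 matched by symbol. Alternatives varied the cells kept, the pseudocount, the mean against the median, the filter, the scaling and the detection level. Gene positions are from GENCODE M21. Computation used numpy 2.4.6 and scipy 1.17.1 with pandas 2.3.3 under Python 3.11.15, and plots matplotlib 3.10.9.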

Additional observations from a re-analysis of the deposited data

Results flagged for a closer look

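Among the 400 cells left out for having fewer than 2000 genes above 0, some members were above 0 more often at 48 h than at 0 h, the time without doxycycline in the same Sod1 set. NNAT was above 0 in 18.3% of 82 such cells at 48 h, against 1.69% of 59 at 0 h, with 0% at 12 h and 5.77% at 36 h. MEG3 was above 0 in 59.8% at 48 h, against 20.3% at 0 h, and PEG3 in 19.5%, against 0%. In the Sod1-low set NNAT was above 0 in 4.65%, 22.5%, 9.76% and 2.56% of the cells left out at 6, 18, 24 and 30 h, so the share at 30 h was the lowest of that set. These are shares over cells of 1 sample per time point, so the difference between times was not tested. The cells enter no comparison of the report, and their number of reads is unknown. Kept cells had at least 3031 genes above 0 at 0 h, and at least 2007 with a median of 2141 at 48 h. Many 48 h cells thus lay close to the line of 2000 genes, and kept 0 h cells did not. Left-out cells of these times may differ in depth, and its part in the shares was not tested.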

How the results depend on the processing

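No paired analysis was possible because cell numbers only name wells, each time point is 1 sample and no test was made. Of 155 recomputed log2 fold changes 122 moved by less than 1.5 times, 31 moved by more and 2 that were past 2-fold reversed: NNAT (-0.15) and MEST (-0.41) at 12 h against 0 h in even-numbered cells. A further 5 values within 2-fold changed sign: MEST at 30 h against 6 h (-1.04) and MEG3 at 36 h against 12 h (-0.52) over all cells, PEG3 at 30 h against 6 h (0.23) and MEST at 36 h against 12 h (0.87) in even-numbered cells, and MEG3 at 12 h against 0 h (-0.17) by medians. At 30 h against 6 h NNAT lay between 2.36 and 5.87 over the alternatives, and PEG10 between 0 and 2.13. NNAT was chosen on this difference in these same cells, so its range is a description and lends the difference no support. Some of the 122 folds that moved little could not have moved more. Dropping the filter leaves each fold as it was. Setting the median log2 ratio of passing genes to 0 shifts all folds of a pair by 0.20, 0.04 or -0.12. The count of 122 therefore overstates how stable the folds were. All 16 rank correlations recomputed moved little, as did 31 of 35 coefficients of variation and 31 of 45 shares. The correlations were recomputed only with the number of genes held constant and in cells with at least 4000 genes. The latter keeps most cells, since the median was 6676 genes at 24 h and 6481 at 30 h. Odd-numbered, even-numbered and all cells were not tried for them, so their count says little about how stable they were.

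Counts of members past 2-fold moved as follows. At 30 h against 6 h, 2 were higher, and 1 over all cells or by medians, while 0 were lower, and 2 over all cells and 1 by medians. At 12 h against 0 h, 2 were higher, and 0 in even-numbered cells, 1 by medians and 4 with no filter, while 0 were lower, and 1 with no filter. At 36 h against 12 h, 1 was higher, and 0 over all cells or by medians, 2 in even-numbered cells and 4 with no filter, while 1 was lower, and 2 over all cells, by medians or with no filter, 0 in cells with at least 1000 genes and 3 in odd-numbered cells. The cause was not tested. Cells with at least 4000 genes gave no value at 36 h against 12 h, since no 36 h cell had that many. Summing NNAT with PEG5 and SNRPN with SNURF were alternatives chosen after seeing the data. With no replicate time points and no read counts, differences of low members cannot be told apart from well and depth effects.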
